A study of Mus musculus with 4 samples.

Results

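Potassium channel genes are described here through the histone mark at their promoters. They were taken as the protein-coding genes of the GENCODE mouse annotation, release M21, whose symbol starts with Kcn, which gave 94 genes of 21853 in 20 subfamilies. The mark was histone H3 trimethylated at lysine 4 (H3K4me3), which sits at active and poised promoters, read by chromatin immunoprecipitation and sequencing (ChIP-seq). The tissue was frozen hippocampus of male B6CASTF1/J mice aged 2 months, given in the labels as layer of hippocampus with no layer named. B6CASTF1/J is a first-generation hybrid of a laboratory strain and a wild-derived strain. Pool C (biological replicate 2) and pool D (biological replicate 1) each combined 7 tissue samples and were each sequenced as 2 technical libraries, 4 libraries in all. No treatment and no mutant allele is named for either pool, so there was 1 condition.

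Potassium channels let potassium leave the cell along its gradient, which sets the resting potential of neurons, ends the action potential and limits repetitive firing. Most are assembled from pore-forming subunits that open with voltage, with intracellular calcium or sodium, or with G proteins and lipids, and auxiliary subunits change their gating and their transport to the membrane. H3K4me3 usually covers a short stretch around a CpG-rich start site. In many tissues it spreads over several kilobases at genes that serve the identity of the cell type.

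Each pool gave 1 peak list. A replicated list drawn by the authors from both pools was used as the main list and counted 27063 peaks, which covered 41.5 Mb. Pool C had 34193 peaks covering 48.0 Mb, and pool D had 24690 covering 35.0 Mb. A gene is called marked when at least 1 bp of a peak lay within 1 kb of a start site of one of its coding transcripts. Peaks within 1 kb of each other were joined into a domain, and the length of a gene's broadest promoter domain is its breadth. With 1 list per pool there is no test, and a spread over the 2 pools is given as SD. In whole tissue, fewer cells that carry the mark and less mark per cell cannot be told apart. The tissue label was checked against marker genes. All 10 genes fixed as markers of hippocampal neurons were marked in every list, among them Prox1 of granule cells and Camk2a of excitatory neurons. All 6 astrocyte and all 7 oligodendrocyte markers and 4 of 6 interneuron markers were marked in the replicated list. So were 7 of 8 markers of endothelium and mural cells, but only 4 of 10 microglial markers. Of all protein-coding genes 64.8% were marked in that list, so a marked gene alone does not tell a cell type. None of 8 genes of other tissues was marked in any of the lists.

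Of the 94 potassium channel genes, 74 (78.7%) were marked in the replicated list, beside 64.8% of all protein-coding genes. In pool C 77 (81.9%) were marked, beside 66.3% of all genes, and in pool D 73 (77.7%), beside 63.7%. The list called on both pools together marked 74, beside 65.6% of all genes. The marked channel genes had a median breadth of 3723 bp in the replicated list (quartiles 1839 and 5045 bp, range 315 to 9229 bp), beside 2234 bp over all marked genes. Their median was 3802 bp in pool C and 3358 bp in pool D, beside 2403 bp and 2035 bp over all genes marked in these pools. Domains of 5 kb or more were found at 19 of the 74 (25.7%), beside 6.94% of all marked genes. The corresponding counts were 23 of 77 (29.9%) in pool C, beside 9.42%, and 12 of 73 (16.4%) in pool D, beside 4.74%. Among all marked genes ordered by breadth, 46 of the 74 channel genes (62.2%) lay above the 75th percentile and 27 above the 90th, while 16 lay at or below the 25th. The median channel gene stood at the breadth percentile 83.4 among all marked genes. By the authors' peak signal, the strongest promoter peaks of the marked channel genes had a median percentile of 65.85. That rank was taken among all peaks of the replicated list, at promoters or not, so the percentiles for breadth and signal cannot be compared. Of 10 sodium channel alpha subunit genes (Scn) 6 were marked, with a median of 2610 bp and no domain of 5 kb in the replicated list. Of 10 calcium channel alpha genes (Cacna1) 8 were marked, with a median of 3794 bp and 3 domains of 5 kb or more.

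**Figure D1:**
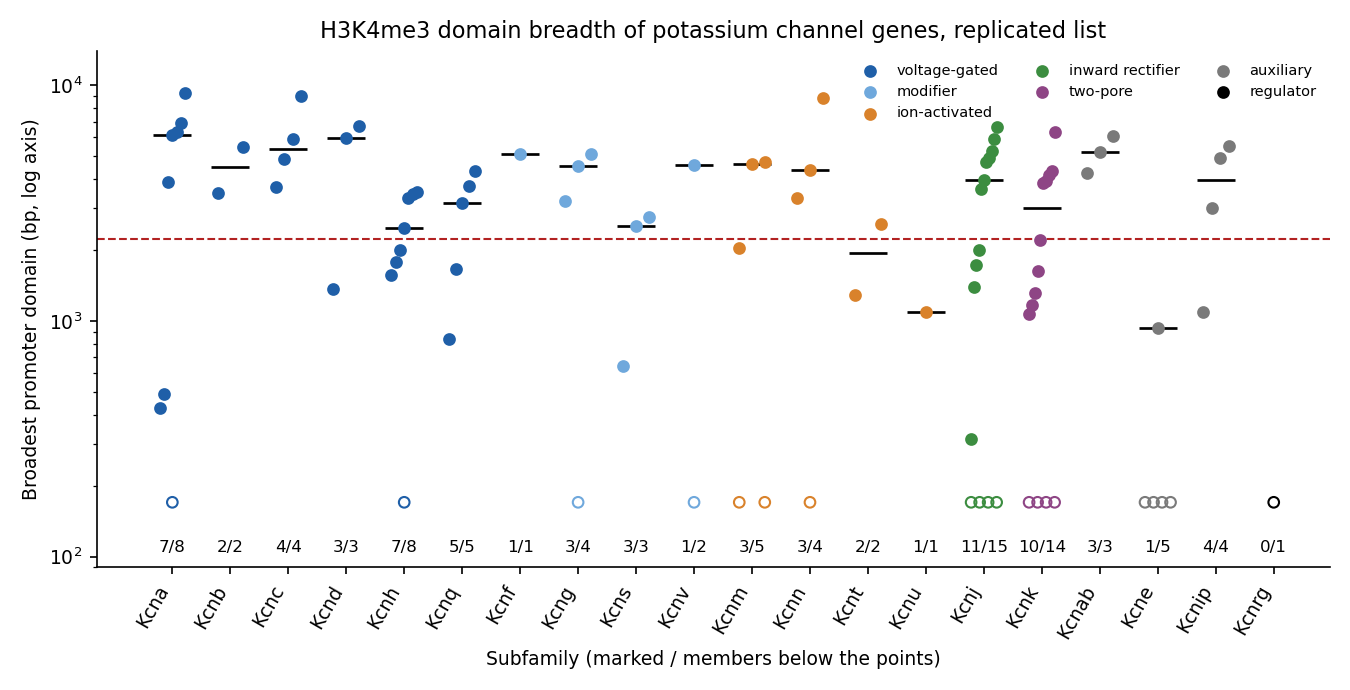
Breadth of the broadest promoter domain in the replicated list (bp, log axis) for each potassium channel gene, by subfamily. Filled points are marked genes, bars are subfamily medians, open circles drawn at the foot are genes with no promoter peak, and the dashed line is the median of 2234 bp over all marked genes. Kcna, Kcnd, Kcnc and Kcnab have the highest medians of the subfamilies with more than 1 marked gene, and 4 of 5 Kcne genes are open circles.

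Among voltage-gated pore subunits (Kcna, Kcnb, Kcnc, Kcnd, Kcnh and Kcnq) 28 of 30 genes were marked in the replicated list, 29 in pool C and 27 in pool D. Their median breadth was 3616 bp, and 9 reached 5 kb. The Kcna genes encode the Shaker-type channels, which in neurons act mostly in axons and at terminals, and 7 of 8 were marked with a median of 6134 bp. The subfamily divided into 4 genes between 6134 and 9229 bp, Kcna4 at 3884 bp, the pair Kcna7 and Kcna5 under 500 bp, and Kcna10 without a peak. These genes lie in clusters, so that broad and absent domains were close neighbours. On chromosome 3 the 5′ end of Kcna3 was 65.0 kb from that of Kcna2, and Kcna2 was 81.9 kb from Kcna10. On chromosome 6 Kcna6 was 94.3 kb from Kcna1, and Kcna1 was 111.0 kb from Kcna5.

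Promoter sequences of the first cluster and of 2 genes of the second are shown because they place broad, narrow and absent domains beside their base composition. They are RefSeq windows on GRCm38.p6, 250 bases before to 50 after the annotated start, written 5′ to 3′ on the gene's strand, with every CpG in capitals. The Kcna3 window is chr3:107035912-107036211 (plus strand, 37 CpG). That of Kcna2 is chr3:107101317-107101616 (plus strand, 31 CpG) and that of Kcna10 is chr3:107182893-107183192 (plus strand, 0 CpG). The Kcna6 window is chr6:126740625-126740924 (minus strand, 8 CpG), and the Kcna5 window is chr6:126535506-126535805 (minus strand, 4 CpG). The replicated peaks covered all 300 bases of the Kcna3, Kcna2 and Kcna6 windows and 0 bases of the Kcna10 and Kcna5 windows. In pool C a peak of 775 bp (chr6:126534852-126535626) also met the Kcna5 window, and pool D had none there. RefSeq windows of protein-coding genes held a median of 14 CpG, over 20143 windows.
Kcna3: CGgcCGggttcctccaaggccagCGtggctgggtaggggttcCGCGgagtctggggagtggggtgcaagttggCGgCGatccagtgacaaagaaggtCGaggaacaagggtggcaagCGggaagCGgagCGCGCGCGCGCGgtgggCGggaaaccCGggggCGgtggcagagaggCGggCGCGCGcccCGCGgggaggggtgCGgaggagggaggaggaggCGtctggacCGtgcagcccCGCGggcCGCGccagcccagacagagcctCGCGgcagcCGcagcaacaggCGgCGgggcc
Kcna2: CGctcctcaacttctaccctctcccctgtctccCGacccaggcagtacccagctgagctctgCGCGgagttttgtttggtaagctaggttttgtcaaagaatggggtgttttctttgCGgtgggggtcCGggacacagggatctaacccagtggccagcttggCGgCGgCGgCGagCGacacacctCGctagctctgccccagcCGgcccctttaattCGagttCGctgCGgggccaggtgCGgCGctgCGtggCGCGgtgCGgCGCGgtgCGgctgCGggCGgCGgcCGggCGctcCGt
Kcna10: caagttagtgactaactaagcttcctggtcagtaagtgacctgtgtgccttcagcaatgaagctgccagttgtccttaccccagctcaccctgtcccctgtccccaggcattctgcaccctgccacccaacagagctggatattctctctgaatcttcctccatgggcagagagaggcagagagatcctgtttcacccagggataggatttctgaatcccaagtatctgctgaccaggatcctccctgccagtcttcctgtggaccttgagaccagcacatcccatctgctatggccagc
Kcna6: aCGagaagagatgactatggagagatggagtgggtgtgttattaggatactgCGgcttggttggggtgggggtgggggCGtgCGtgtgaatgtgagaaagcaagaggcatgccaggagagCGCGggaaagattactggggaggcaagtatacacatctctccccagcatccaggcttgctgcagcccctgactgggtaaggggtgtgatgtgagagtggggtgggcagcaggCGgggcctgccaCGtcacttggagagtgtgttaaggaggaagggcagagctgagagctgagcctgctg
Kcna5: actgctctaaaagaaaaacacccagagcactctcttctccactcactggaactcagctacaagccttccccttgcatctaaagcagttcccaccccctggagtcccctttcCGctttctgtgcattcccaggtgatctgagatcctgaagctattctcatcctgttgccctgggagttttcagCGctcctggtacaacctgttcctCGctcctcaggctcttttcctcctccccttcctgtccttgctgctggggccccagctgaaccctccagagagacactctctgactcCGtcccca

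Kcna3, which encodes a channel also known from lymphocytes, had a domain of 6923 bp in the replicated list (mm10 chr3:107035596-107042518), 6967 bp in pool C and 6761 bp in pool D (mean of the pools 6864 ± 146 bp, SD, n = 2). Kcna2, one of the main axonal subunits, spanned 6134 bp in the replicated list, 6361 bp in pool C and 6052 bp in pool D (6206.5 ± 218 bp). Kcna1, its frequent partner and a gene of episodic ataxia in humans, spanned 6307 bp, with 6577 bp in pool C and 6055 bp in pool D (6316 ± 369 bp). These 3 domains were close in length in both pools, and each lay mostly downstream of its start site. The Kcna3 and Kcna1 domains also passed the far end of the annotated gene, which for Kcna3 is at 107038070. A start of the noncoding gene AI504432 also lay inside the Kcna3 domain, so its breadth cannot be given to Kcna3 alone. Noncoding starts lay inside other channel domains too, among them those of Kcnd3, Kcnj3, Kcnma1, Kcnmb4 and Kcnq3. Kcna6 had the broadest domain of any channel gene in the replicated list, 9229 bp (chr6:126731706-126740934), but the pools differed, with 10603 bp in pool C and 1836 bp in pool D. In pool D the same stretch was covered by 4 peaks, and a gap of 1181 bp, just over the 1 kb joined here, cut the start-site peak from the rest. With gaps up to 3 kb joined, Kcna6 spanned 10603 bp in pool C and 8870 bp in pool D. Its printed window held 8 CpG, fewer than the 37 of Kcna3, although its domain was the longer in the replicated list. That window lies at the annotated 5′ end, 0.5 kb from the start nearest the strongest peak. Within 500 bp of the latter start Kcna6 held 74 CpG, and Kcna3 held 103 by the same count. Kcna4, an A-type subunit, spanned 3884 bp, with 4231 bp in pool C and 3802 bp in pool D. Kcna7, known from muscle, had 490 bp in the replicated list, 476 bp in pool C and 509 bp in pool D. Kcna5, known from atrial and smooth muscle, had 429 bp in the replicated list, 775 bp in pool C and no peak in pool D. Kcna10, known from the inner ear, had no promoter peak in any list.

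**Figure D2:**
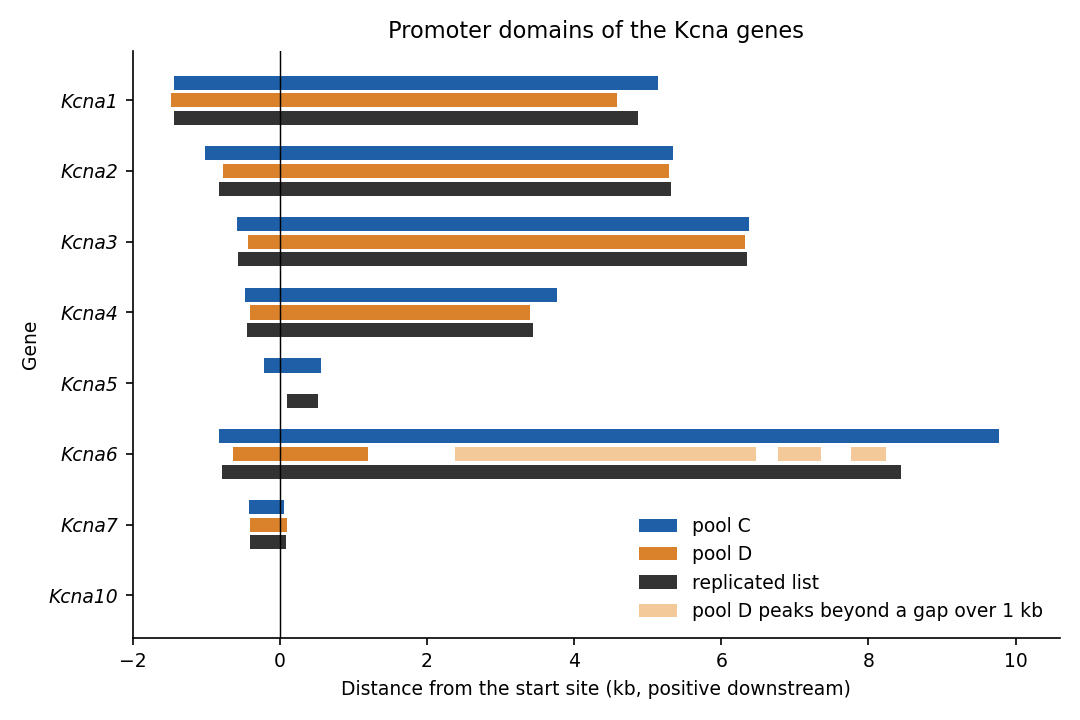
Promoter domains of the 8 Kcna genes drawn to scale by distance from the start site nearest the strongest peak (kb, positive downstream), in pool C, in pool D and in the replicated list. Pale bars are pool D peaks of Kcna6 that lie beyond the gap of 1181 bp. Kcna1, Kcna2 and Kcna3 have nearly equal bars in both pools, Kcna5 has none in pool D and Kcna10 has none at all.

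The Kcnc genes encode the fast-deactivating channels of fast-spiking neurons. All 4 were marked, with a median of 5384.5 bp. Kcnc4 spanned 5928 bp, with 6721 bp in pool C and 5652 bp in pool D. The Kcnd genes encode the A-type channels of dendrites, and all 3 were marked. Kcnd2, the main dendritic A-type subunit of pyramidal cells, had 6736 bp in the replicated list (chr6:21213623-21220358), 6762 bp in pool C and 6325 bp in pool D (6543.5 ± 309 bp). Kcnd3 spanned 5984 bp, with 6401 bp in pool C and 4283 bp in pool D (5342 ± 1498 bp), so the pools were further apart for it than for Kcnd2. Kcnd1 was shorter, at 1367 bp, with 1318 bp in pool C and 1390 bp in pool D. Kcnb2, which encodes a delayed rectifier, spanned 3504 bp, with 3571 bp in pool C and 3034 bp in pool D.

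The Kcnh and Kcnq genes were marked almost throughout but had shorter domains. Kcnh encodes the ether-a-go-go channels, with 7 of 8 marked, a median of 2480 bp and none at 5 kb. Kcnh7 was the broadest in the replicated list and in pool C, at 3535 bp in the replicated list, with 3804 bp in pool C and 2587 bp in pool D. Kcnh6 was unmarked in the replicated list and had 217 bp in pool C only. All 5 Kcnq genes were marked, with a median of 3171 bp. Kcnq3, a subunit of the M-current channel that muscarinic input closes, spanned 4339 bp, with 4714 bp in pool C and 3997 bp in pool D. Kcnq1, better known from heart and inner ear, had 842 bp, with 1109 bp in pool C and 736 bp in pool D. Kcnq1 was the shortest of the 5 in every list.

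Modifier subunits form no working channel alone and tune Kcnb channels. Of 10 modifier genes (Kcnf, Kcng, Kcns and Kcnv) 8 were marked, with a median of 3890.5 bp. Kcng3 was the broadest in the replicated list at 5109 bp, and its pools were nearly equal, 4813 bp in pool C and 4834 bp in pool D. In pool C Kcnv1 and Kcnf1 were broader. Kcnf1 spanned 5093 bp, with 5237 bp in pool C and 4234 bp in pool D. Kcnv1 spanned 4600 bp, with 5861 bp in pool C and 4235 bp in pool D, and its longest single promoter peak was 2997 bp. Kcns2, a modifier expressed in brain, spanned 2770 bp, with 2906 bp in pool C and 2515 bp in pool D. Kcng4 and Kcnv2, the second of which is known from photoreceptors, had no peak in any list.

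Channels opened by intracellular ions were marked in 7 of 8 genes (Kcnma, Kcnn, Kcnt and Kcnu), with a median of 3335 bp. Kcnn2, a small-conductance calcium-activated channel that shapes the afterhyperpolarisation of hippocampal neurons, had a broad domain. It spanned 8790 bp in the replicated list, 13377 bp in pool C and 7577 bp in pool D (10477 ± 4101 bp), and the pool C value was the largest of any channel gene. Joining gaps up to 3 kb brought the pools to 13377 bp in pool C and 11076 bp in pool D, a ratio of 1.21. Kcnn3 of the same subfamily spanned 4376 bp, with 4466 bp in pool C and 4292 bp in pool D. Kcnn1 spanned 3335 bp, with 3425 bp in pool C and 2147 bp in pool D. In the replicated list this domain reached 3076 bp upstream of the start and 258 bp downstream. The longest single promoter peak of Kcnn1, 1057 bp, lay in a separate domain. Kcnn4, the intermediate-conductance channel of blood and epithelial cells, had no peak in any list. Kcnma1, the pore of the large-conductance BK channel, spanned 4648 bp, with 4748 bp in pool C and 4495 bp in pool D. Kcnt2 and Kcnt1 encode sodium-activated channels. Kcnt2 spanned 2586 bp, with 2627 bp in pool C and 2548 bp in pool D. Kcnu1, known as a sperm channel, carried 1088 bp, with 1140 bp in pool C and 1046 bp in pool D. That peak lay 62.1 kb from the annotated 5′ end, at another coding transcript start of Kcnu1.

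Inward rectifiers (Kcnj) hold the resting potential and include G-protein-gated and ATP-sensitive channels. Of 15 genes 11 were marked in each list, with a median of 3961 bp. The G-protein-gated subunits Kcnj6, Kcnj3 and Kcnj9, which carry slow inhibition through GABA-B receptors, were all marked. Kcnj6 spanned 6669 bp in the replicated list, 6804 bp in pool C and 6618 bp in pool D (6711 ± 132 bp). Kcnj3 spanned 5895 bp, with 6462 bp in pool C and 5259 bp in pool D. Kcnj9 spanned 3630 bp, with 3704 bp in pool C and 3358 bp in pool D. Their relative Kcnj5, best known from atrium and adrenal cortex, had the narrowest domain of the marked channel genes in the replicated list and in pool D, with 315 bp in the replicated list, 706 bp in pool C and 277 bp in pool D. Kcnj10, the main inward rectifier of astrocytes, had 3961 bp, with 4087 bp in pool C and 3582 bp in pool D. All 6 astrocyte markers were marked in both pools, with a median of 7160 bp in pool C and 4325.5 bp in pool D, and their part in the Kcnj10 values was not tested. Kcnj8, an ATP-sensitive subunit known from pericytes, had 1394 bp, with 2310 bp in pool C and 1134 bp in pool D. Markers of endothelium and mural cells were marked at 8 of 8 genes in pool C and 6 of 8 in pool D, and their part in the Kcnj8 difference was not tested. Kcnj1, Kcnj13, Kcnj14 and Kcnj15 had no promoter peak in any list, and Kcnj1 and Kcnj13 are known from kidney and from pigment and choroid epithelium.

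Two-pore channels (Kcnk) carry background leak, and 10 of 14 were marked in the replicated list, with a median of 3012 bp. Kcnk1, a weakly conducting channel of brain and other tissues, was the broadest at 6330 bp, with 6515 bp in pool C and 4970 bp in pool D (5742.5 ± 1092 bp). It was followed by Kcnk12 at 4341 bp and by Kcnk10, a mechanically gated channel, at 4167 bp. Kcnk5, known from kidney, had 1313 bp, with 1439 bp in pool C and 733 bp in pool D. Kcnk7, Kcnk16 and Kcnk18 had no promoter peak in any list. Kcnk15 was unmarked in the replicated list and in pool D and had 405 bp in pool C. Kcnk16, known from pancreatic islets, lies 87.4 kb from Kcnk5.

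The windows of this neighbouring pair and of both starts of Kcnk2, a mechanically and lipid-gated channel, are shown because in each pair the replicated peaks covered 1 window and not the other. Their source and capitals are as above. Kcnk5 is chr14:20181733-20182032 (minus strand, 26 CpG), and Kcnk16 is chr14:20269220-20269519 (minus strand, 2 CpG). The start that carried the Kcnk2 domain is chr1:189343304-189343603 (minus strand, 33 CpG), and the annotated 5′ end is chr1:189402224-189402523 (minus strand, 6 CpG). Replicated peaks covered 300 bases of the Kcnk5 window and of the first Kcnk2 window, and 0 bases of the other windows. In pool C a peak of 441 bp (chr1:189402352-189402792) also met the window at the annotated 5′ end of Kcnk2, and pool D had none there.
Kcnk5: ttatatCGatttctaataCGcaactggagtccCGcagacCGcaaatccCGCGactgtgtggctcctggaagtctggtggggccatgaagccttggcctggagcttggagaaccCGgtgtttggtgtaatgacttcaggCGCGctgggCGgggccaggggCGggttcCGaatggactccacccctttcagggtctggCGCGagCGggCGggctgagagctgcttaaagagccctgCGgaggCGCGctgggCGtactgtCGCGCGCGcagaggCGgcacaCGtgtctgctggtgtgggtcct
Kcnk16: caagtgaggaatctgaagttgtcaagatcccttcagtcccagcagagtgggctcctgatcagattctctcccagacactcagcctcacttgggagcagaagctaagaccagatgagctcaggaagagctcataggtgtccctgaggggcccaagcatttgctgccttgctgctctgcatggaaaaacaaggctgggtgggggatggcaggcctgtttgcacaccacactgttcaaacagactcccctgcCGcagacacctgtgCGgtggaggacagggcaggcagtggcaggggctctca
Kcnk2 at the marked start: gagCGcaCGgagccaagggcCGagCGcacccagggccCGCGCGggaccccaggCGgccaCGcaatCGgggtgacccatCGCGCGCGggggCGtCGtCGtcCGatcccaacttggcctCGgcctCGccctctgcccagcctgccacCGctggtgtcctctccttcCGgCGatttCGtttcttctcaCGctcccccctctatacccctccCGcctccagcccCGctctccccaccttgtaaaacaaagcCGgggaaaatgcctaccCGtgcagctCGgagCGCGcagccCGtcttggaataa
Kcnk2 at the annotated 5′ end: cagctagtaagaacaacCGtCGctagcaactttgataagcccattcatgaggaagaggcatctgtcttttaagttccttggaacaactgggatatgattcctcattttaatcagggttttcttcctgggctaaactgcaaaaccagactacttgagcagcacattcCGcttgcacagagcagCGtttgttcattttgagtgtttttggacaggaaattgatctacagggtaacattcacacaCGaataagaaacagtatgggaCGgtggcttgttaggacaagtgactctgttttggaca

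Auxiliary subunits (Kcnab, Kcne, Kcnip and Kcnmb) were marked in 10 of 16 genes, with a median of 4493 bp, and divided by subfamily. The 3 Kcnab genes, which encode cytoplasmic beta subunits of Kcna channels, were all marked, with a median of 5225 bp. Kcnab2 was the broadest at 6063 bp, with 6719 bp in pool C and 5607 bp in pool D, and its domain also held a start of Nphp4, a gene of the cilium. Kcnab3 spanned 4254 bp, with 4365 bp in pool C and 4150 bp in pool D. That domain also held starts of Cntrob and Trappc1, and the longest single peak at a Kcnab3 start was 1189 bp, so its breadth cannot be given to Kcnab3 alone. The 4 Kcnip genes, which encode calcium sensors bound to Kcnd channels, were all marked. Kcnip3 was the broadest at 5548 bp, with 6138 bp in pool C and 5215 bp in pool D. Kcne genes encode small single-pass subunits, and 1 of 5 was marked. That gene was Kcne3, at 933 bp, with 944 bp in pool C and 942 bp in pool D. Kcne4 had 864 bp in pool C only. Kcne1, Kcne1l and Kcne2 had no peak in any list, and Kcne1 is known from heart and inner ear and Kcne2 from stomach and choroid plexus. Of the BK beta subunits 2 of 4 were marked. Kcnmb4, the main one in neurons, spanned 4732 bp, with 4814 bp in pool C and 4669 bp in pool D, and 2277 bp as its longest single promoter peak, while Kcnmb1 of smooth muscle and Kcnmb3 had none. Kcnrg, which limits the assembly of voltage-gated channels, was unmarked in every list.

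**Figure D3:**
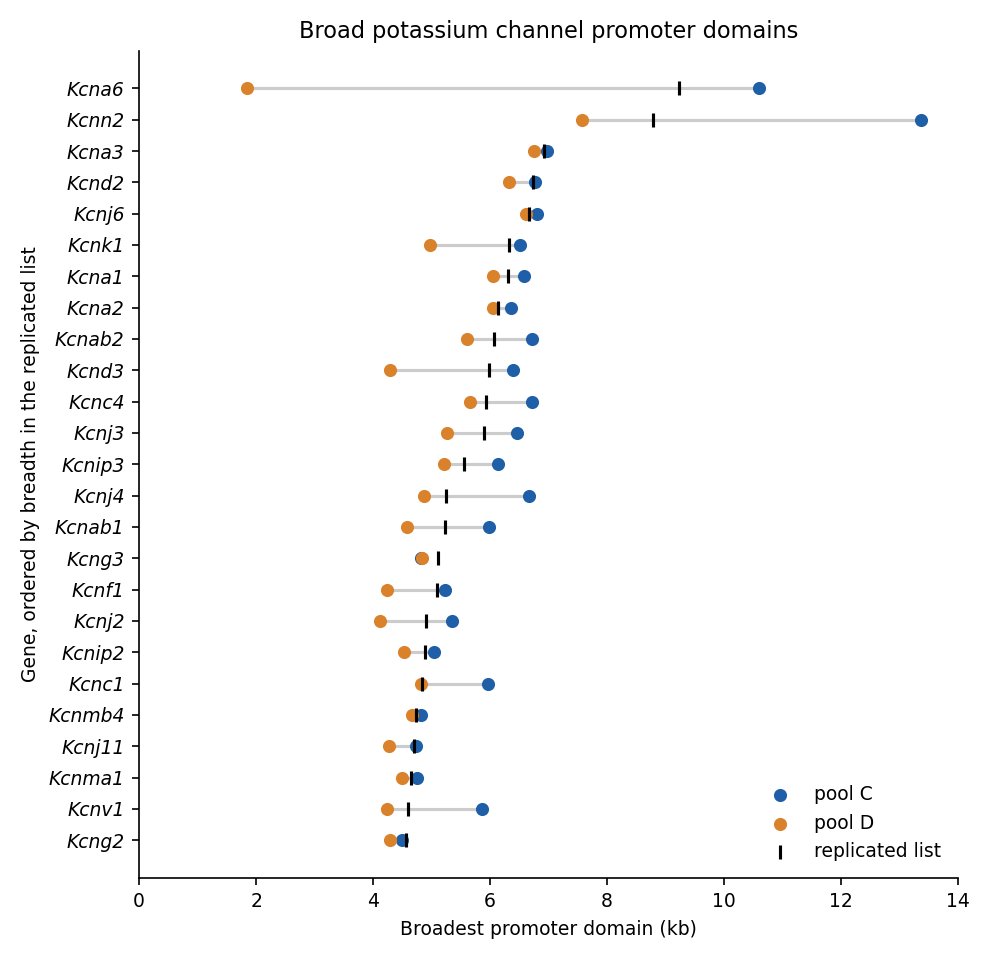
Breadth (kb) of 25 broad potassium channel domains, ordered by the replicated list, with pool C in blue, pool D in orange and the replicated list as a black tick. Kcna6, at 10603 bp in pool C and 1836 bp in pool D, has the longest line between pools, and pool C is at or to the right of pool D for every gene shown except Kcng3.

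Between pools, 73 channel genes were marked in both lists, beside 63.6% of all genes. Marked in pool C and not in pool D were 4 (Kcna5, Kcne4, Kcnh6 and Kcnk15), beside 2.62% of all genes, with domains of 217 to 864 bp. No channel gene was marked in pool D alone, beside 0.0183% of all genes. Of the 73, 70 (95.9%) were broader in pool C, beside 96.8% of all genes marked in both. The median ratio of pool C to pool D was 1.195 (log2 0.26), beside 1.175 (log2 0.23) over all genes, so the offset between pools at channel genes was close to that over all genes. Across the 73 genes, which share both pools and are not replicates, breadths in the pools had a Spearman correlation of 0.935, beside 0.923 across all genes. The ratio passed 1.5 at 11 channel genes (15.1%), beside 12.7% of all genes. They included 5.78 at Kcna6, 2.55 at Kcnj5, 2.04 at Kcnj8, 1.96 at Kcnk5 and 1.77 at Kcnn2. When gaps up to 3 kb were joined, 7 of the 11 stayed over 1.5, with Kcna6 at 1.20 and Kcnn2 at 1.21. Others passed 1.5 under this setting, so that 11 channel genes were again over it, beside 2024 of all genes (14.6%). Microglial markers moved with the pools as well. Of 10 such genes 8 were marked in pool C, at 286 to 2263 bp, and 0 in pool D, while C1qb and Itgam were unmarked in every list. Their part in the pool differences at channel genes was not tested. Kcnk13, a channel known from microglia, was marked in both pools, with 4119 bp in pool C and 3504 bp in pool D.

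Many channel genes have several annotated start sites, which can lie under 1 domain. The 94 genes had 240 coding start sites, of which 164 were marked, and 60 genes had more than 1 site. No share over all genes is given for these counts of sites. By the 5′ end alone, 73.4% of channel genes and 61.9% of all genes were marked, against 78.7% and 64.8% by any start. In 69 of the 74 marked genes the annotated 5′ end itself was marked. The exceptions, named after their values were seen, were Kcne3, Kcnj16, Kcnk2, Kcnma1 and Kcnu1. In 13 genes the broadest domain lay over 1 kb from the 5′ end. The distance was 291.3 kb at Kcnn2, 149.7 kb at Kcnip1, 58.9 kb at Kcnk2 and 9.6 kb at Kcnma1. At Kcnma1 the observed to expected CpG ratio was 0.78 around the start under the domain, against 0.078 around the annotated 5′ end. Kcne3 gave 0.563 against 0.068 in the same comparison, and Kcna1 gave 0.713 against 0.326. Kcnu1 did not follow, with 0.254 at the marked start and 0.28 at its 5′ end.

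Separate promoter domains, 2 or more in 1 gene, were present at 6 of the 74 marked genes (8.11%), beside 7.04% of all marked genes. Kcnn2 had 8790 bp and 1261 bp. Kcnip3 had 5548 bp and 1624 bp, and in pool C the second measured 1649 bp, against 1604 bp in pool D. Kcnip4, a long gene with many isoforms, had 4 domains, of 3004, 1573, 602 and 688 bp, all 4 also in pool C and 3 of them in pool D. Kcnk10 had 4167 bp and 759 bp. Kcnn1 had 3335 bp and 1057 bp, and Kcnt1 had 1291 bp and 1063 bp. The 5 genes with a pair of domains carried both in each pool.

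Domains reached further downstream of the start site than upstream. From the start site nearest the strongest peak, the median extent was 2347.5 bp downstream and 827 bp upstream, beside 1328 bp and 743 bp over all marked genes. In 60 of the 74 (81.1%) the downstream side was the longer, beside 79.2% of all marked genes. The gap to the median of all genes was wider on the downstream side. Away from promoter domains, 46 further peaks lay inside 31 channel genes, with a median width of 530 bp. Of these 1, 437 bp inside Kcnip1, covered its annotated 5′ end, which is not the start of a coding transcript. Of the 46, 45 met a peak of pool C and 27 a peak of pool D. The whole lists also differed, with 34193 peaks in pool C and 24690 in pool D. No share over all genes is given for inner peaks, so these counts set channel genes apart from no others. The widest, 3660 bp, was found inside Kcnq1 at 186.0 kb from its nearest start. It sits at the start of Kcnq1ot1, the imprinted noncoding RNA of this locus,, and the promoter domain of Kcnq1 itself measured 842 bp.

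The 20 channel genes unmarked in the replicated list had fewer CpG at their 5′ ends and were shorter, by the medians below. They were Kcna10, Kcne1, Kcne1l, Kcne2, Kcne4, Kcng4, Kcnh6, Kcnj1, Kcnj13, Kcnj14, Kcnj15, Kcnk7, Kcnk15, Kcnk16, Kcnk18, Kcnmb1, Kcnmb3, Kcnn4, Kcnrg and Kcnv2. The nearest replicated peak was 4449 to 61814 bp from their start sites, with a median of 16167 bp. Within 500 bp of the 5′ end, the observed to expected CpG ratio had a median of 0.576 at marked channel genes and 0.236 at unmarked ones, beside 0.710 and 0.173 over all marked and unmarked genes. The median at marked channel genes was thus below that of marked genes at large. The median CpG count was 50 at marked and 14 at unmarked channel genes, beside 60 and 9 over all genes. At the start site under the domain the median ratio of marked channel genes was 0.691. Gene length had a median of 47.3 kb for marked and 11.2 kb for unmarked channel genes, beside 25.6 kb and 8.0 kb over all genes.

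**Figure D4:**
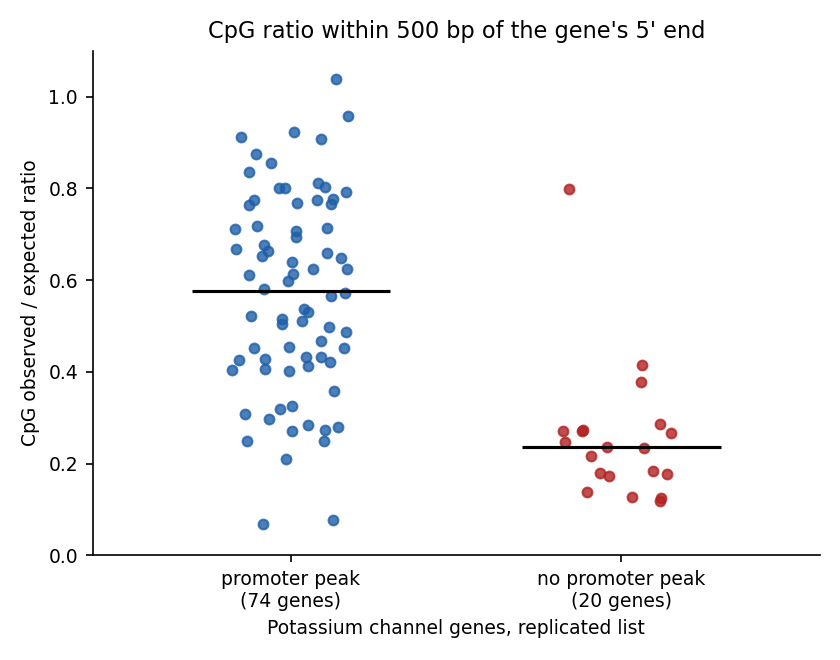
Observed to expected CpG ratio within 500 bp of the annotated 5′ end for the 74 marked and 20 unmarked potassium channel genes, each point a gene with sideways scatter for legibility, bars at the medians of 0.576 and 0.236. The groups overlap below 0.4, and 1 unmarked gene, Kcnk15, stands apart at 0.798.

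Split by CpG ratio at the 5′ end, 35 of 36 channel genes at 0.6 or more were marked, beside 97.1% of all genes in that range. The exception was Kcnk15, at 0.798, which had its 405 bp peak in pool C alone. Between 0.4 and 0.6, 25 of 26 were marked, all but Kcne1l, beside 82.6% of all genes. Below 0.4, 14 of 32 were marked, beside 21.7%. The domains of those 14 measured 429 to 6307 bp. The longest were those of Kcna1, Kcnip3, Kcnab1, Kcnma1 and Kcnc2, and the others measured up to 3630 bp. For Kcna1 and Kcnma1 the start under the domain had the higher ratios given above. Breadth followed CpG content loosely. Across the 74 marked genes the Spearman correlation of CpG ratio with breadth was 0.247, beside 0.309 across all marked genes, as a description of genes that share the same lists. In windows of 250 bases before to 50 after the 5′ end, GGGCGG or its reverse CCGCCC, whose letters include a CpG, occurred at 40 of 74 marked (54.1%) and 6 of 20 unmarked channel genes (30.0%). The shares were 60.1% of all marked and 11.5% of all unmarked genes, and 43.0% of all genes. TATAAA or TTTATA occurred at 1 marked channel gene (1.35%), Kcnj9, and at 3 unmarked ones (15.0%), Kcnj1, Kcnj13 and Kcnj15, beside 7.42% of all marked and 22.3% of all unmarked genes. That made 4.26% of channel genes, beside 12.7% of all genes. A letter match is a description of the window only.

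Proteins that bind or regulate potassium channels but carry other names formed a list of 30 genes. Of these 28 (93.3%) were marked in the replicated list, beside 64.8% of all genes. In pool C 29 were marked, beside 66.3%, and in pool D 28, beside 63.7%. Their median in the replicated list was 3715 bp, beside 3723 bp at the channel genes and 2234 bp over all marked genes. Dlg4, a scaffold of the postsynaptic density that clusters Kcna channels, spanned 12349 bp, with 12380 bp in pool C and 12220 bp in pool D. Gabbr1, a GABA-B receptor subunit upstream of Kcnj3 and Kcnj6, spanned 8829 bp, with 12020 bp in pool C and 7958 bp in pool D. Calm2, a calmodulin gene whose protein is the calcium sensor of Kcnn channels, spanned 9600 bp, with 9616 bp in pool C and 9568 bp in pool D. Lrrc52, which in testis partners Kcnu1, had no promoter peak in any list. Lrrc26, a BK auxiliary subunit of epithelia, was unmarked in the replicated list and in pool D. It had 3084 bp in pool C and 635 bp in the list called on both pools together.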

How the data were processed

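H3K4me3 ChIP-seq peaks of pool C and pool D were used, as 4 lists that the authors deposited on mouse build mm10 (GRCm38). Per the labels, 1 list came from each pool, 1 from both pools together and 1 holds replicated peaks. Both technical libraries of a pool share 1 alignment. Each deposited peak has a signal value, on a scale the authors set, and −log10 p and q values. Signal was used only to rank peaks within a list. The lowest −log10 q was 0.26 in the replicated list, 0.33 in pool C and 0.19 in pool D. The caller is not given in the sources used here, and depth is unknown, so no counting interval is given. The lists held 0 other per-sample columns.

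Lists were read with Python 3.11.15, pandas 2.3.3 and numpy 2.4.6 against 54361 coding start sites of GENCODE M21, and sequence with pysam 0.24.0. The joining of peaks was tested on simulated peaks. Promoter windows came from RefSeq, and 69 channel genes matched. CpG ratio is observed over expected CpG within 500 bp of the 5′ end.

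The genes, lists and comparisons were chosen with earlier results of these data known. Named by rule were the 12 broadest channel genes, the broadest of each subfamily, the unmarked genes, those marked in 1 pool, the 6 with the largest pool ratio over 1.5, the 6 with the largest summed domains and those sharing a domain with another coding gene. Others were named after their values were seen, and some genes under the rule are not reported here.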

Additional observations from a re-analysis of the deposited data

How the results depend on the processing

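Peak lists without read depth limit these values, since unequal depth of the pools could change weak peaks, and each pool gave 1 list. No paired analysis was possible because both technical libraries of a pool share 1 list, so their numbers carry no columns. The number of marked channel genes lay between 69 and 77 in all settings tried. It was 77 in pool C, 73 in pool D, 74 in the list on both pools, and 72 with a −log10 q of at least 5, where Kcna5 and Kcnj5 were lost. With the annotated 5′ end only it was 69, with Kcne 0 and Kcnu 0, and with the start inside a peak it was 70. Median breadth ranged over single pools from 3358 to 3802 bp, and the count at 5 kb or more from 12 to 23. With no gap closed the median was 2790.5 bp (all genes 2081 bp) and the count 14 (18.9%, all genes 4.07%). With gaps up to 3 kb joined the median was 3819 bp (all genes 2339 bp) and the count 20 (27.0%, all genes 11.9%). The share over all genes thus rose from 6.94% under the 1 kb joining, while that of channel genes was 25.7% there. Kcne counts over single pools ranged from 1 to 2. The median log2 pool ratio was 0.30 with −log10 q of at least 5, 0.24 with the 5′ end only and 0.33 with no gap closed, and under the q limit 2 genes were marked in pool C only. The median CpG ratio of unmarked genes was 0.242 within 250 bp, 0.225 within 1000 bp and 0.25 at the start with the highest ratio. With no gap closed, 9 of 34 named breadths fell by over 1.5 times, among them Kcna6 to 2370 bp, Kcnd2 to 2535 bp, Kcna2 to 3338 bp, Kcnv1 to 2997 bp, Kcnmb4 to 2277 bp, Kcnab3 to 1189 bp and Kcnn1 to 1057 bp. With the 5′ end only, Kcnn2 gave 1261 bp and Kcnk10 gave 759 bp. Leaving out domains shared with another coding gene, a choice made after seeing the data, left 72 marked genes with a median of 3663.5 bp. The cause of these shifts was not tested beyond the construction of each setting.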
